A study of Homo sapiens with 12 samples.

Results

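Keratins are the intermediate filament proteins of epithelial cells, and here they were read as transcripts in Caco-2 spheroids, small multicellular bodies of a human cell line from a colorectal adenocarcinoma that acquires enterocyte features in culture. Members were all protein-coding genes of the deposited count table named KRT followed by a number and at most 1 letter. This gave 56 gene entries with 55 symbols (KRT222 has 2 entries) among 48162 genes. They comprise 5 keratins of simple epithelium (KRT7, KRT8, KRT18, KRT19 and KRT20) and 51 others, namely 21 of stratified epithelium, 9 of the hair root sheath, 17 of hair and 4 entries of less classified keratins (KRT23, KRT80 and KRT222). Caco-2 cells of passage 26 were embedded in Matrigel and left for 5 days in DMEM with 20% fetal bovine serum, antibiotics and non-essential amino acids. All 4 groups shared this culture, and 4 h of exposure followed: carrier fluid in the control group, methotrexate (an antifolate drug), lactoferrin (a milk glycoprotein that binds iron), or both agents. No dose is given in the labels used here. Each group has 3 libraries of total RNA. The labels do not say whether these came from separate cultures, so p-values measure only the spread between these libraries.

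A keratin filament is built from pairs of 1 acidic type I and 1 basic type II keratin, so cells express the types together. Simple epithelia such as the gut lining use KRT8 with KRT18, KRT19 or KRT20, whereas stratified epithelia switch to pairs such as KRT5 with KRT14 in basal cells and KRT1 with KRT10 above them. The filaments end on desmosomes and hemidesmosomes and carry mechanical load.

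The genes lie in 2 clusters of the human genome (build hg19, coordinates from the deposited table). The 26 type II genes span positions 52562780 to 53343738 of chromosome 12. The type I genes include 29 entries between 38785049 and 39781094 of chromosome 17, while KRT18 (53342655 to 53346685, plus strand) sits at the end of the type II cluster. The KRT8 entry (53290977 to 53343738, minus strand) overlaps KRT18 by 1084 bases on the opposite strand. The labels do not say whether the libraries keep strand, so reads in that overlap could not be assigned to one gene with certainty.

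RefSeq promoter entries (GRCh38.p14, 250 bases before to 50 after the start) were matched by symbol to 34 of the 55 keratins, giving 38 entries. Entries for 4 genes are printed because their genes took different courses in the data below. KRT79 and KRT34 were almost absent outside the methotrexate libraries. Under TMM scaling KRT20 was lower there and KRT10 was level. On the epithelial scale described below, KRT20 did not pass the test and KRT10 was higher. Capitals mark TATAAA, the core of a TATA box, which was searched on either strand together with GGGCGG (a GC box core) and with the AP-1 motif TGANTCA; neither of the latter is in these 4 windows. KRT79 is at chr12:52834262-52834561, KRT34 at chr17:41382257-41382556, KRT20 at chr17:40885193-40885492 and KRT10 at chr17:40822565-40822864, all on the minus strand and read 5′ to 3′ along the gene.
KRT79: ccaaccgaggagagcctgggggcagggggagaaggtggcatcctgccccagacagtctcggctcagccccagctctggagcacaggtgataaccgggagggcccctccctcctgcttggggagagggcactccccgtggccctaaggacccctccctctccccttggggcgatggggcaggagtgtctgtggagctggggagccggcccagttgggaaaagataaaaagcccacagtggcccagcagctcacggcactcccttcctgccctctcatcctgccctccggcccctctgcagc
KRT34: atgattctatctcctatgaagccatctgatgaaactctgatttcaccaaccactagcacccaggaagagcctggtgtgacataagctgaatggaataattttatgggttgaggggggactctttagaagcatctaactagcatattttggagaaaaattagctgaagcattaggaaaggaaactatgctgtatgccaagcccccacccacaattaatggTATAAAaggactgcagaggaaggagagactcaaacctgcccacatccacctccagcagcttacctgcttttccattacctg
KRT20: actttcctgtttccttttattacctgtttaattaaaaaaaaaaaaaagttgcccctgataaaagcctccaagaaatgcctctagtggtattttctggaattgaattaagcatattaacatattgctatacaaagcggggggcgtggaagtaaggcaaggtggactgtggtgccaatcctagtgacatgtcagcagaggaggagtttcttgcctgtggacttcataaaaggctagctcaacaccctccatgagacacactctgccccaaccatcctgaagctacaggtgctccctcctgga
KRT10: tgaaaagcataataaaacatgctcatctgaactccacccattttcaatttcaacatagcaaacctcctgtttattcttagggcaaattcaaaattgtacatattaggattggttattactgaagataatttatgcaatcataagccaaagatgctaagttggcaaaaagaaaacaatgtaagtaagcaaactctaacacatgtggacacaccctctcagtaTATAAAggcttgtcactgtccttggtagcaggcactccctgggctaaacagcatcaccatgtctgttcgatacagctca
TATAAA was present at 31 bases before the start of KRT34 and at 29 bases before that of KRT10, and its letters are in neither the KRT79 nor the KRT20 window. Only 7 tested keratins have an entry, with none for KRT7, KRT14, KRT16, KRT18 or KRT19. Of the 7, KRT34 and KRT10 hold TATAAA, and KRT4, KRT5, KRT8, KRT20 and KRT79 do not. Over all entries, most of them of untested keratins, TATAAA occurred in 21 of 38 (55.3%). The share was 11.5% of all 35116 RefSeq promoters of the same length. In 16 entries it lay on the gene's strand 25 to 35 bases before the start. GGGCGG occurred in 6 entries (15.8%, against 45% of all promoters) and TGANTCA in 0 (against 7.71%). Only the exact letters were searched, so a TATA box with other letters would be missed. Whether any motif bears on the counts was not tested.

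The methotrexate libraries stood apart from the other 9. They held 47459811 to 60591667 counts against 18714054 to 23859094, counts in 26285 to 27433 genes against 21385 to 22520, and 6.67 to 7.54% mitochondrial counts against 2.00 to 3.34%. Intestinal markers were read as a check of the labelled cell line. All 8 had counts in every group, although CDX1 had only 3, 2, 4 and 1 counts in control, methotrexate, lactoferrin and both agents. Their summed levels were 2355 to 2486 counts per 1000000 library counts (CPM, scaled by TMM) in control and 896 to 1206 in methotrexate. In methotrexate against control, 10 of 10 adipocyte markers rose (summed level 45.9 to 49.5 CPM in control and 18065 to 18838 in methotrexate), and 10 of 10 fibroblast markers rose (105 to 120 and 9571 to 11030 CPM). Of 12 general epithelial markers, 11 fell (4312 to 4467 and 2100 to 2213 CPM). All 5 tested muscle markers rose (39.7 to 44.9 and 288 to 334 CPM). Of 5 tested endothelial markers 3 rose and 1 fell, and of 3 tested blood cell markers 2 rose and 1 fell. Over all 16733 tested genes, 35.4% were called higher and 29.1% lower. At 0 in all control libraries was 1 fibroblast marker, DPT. All adipocyte and fibroblast markers had counts in methotrexate. Adipocyte and fibroblast genes at these levels are not known features of Caco-2, and whether the RNA of the libraries labelled methotrexate came from Caco-2 cells alone was not tested. The part of these shifts in the keratin results was not tested either, so each methotrexate value below describes those libraries. In bulk RNA, fewer cells of a type and less RNA per cell cannot be told apart.

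Of the 56 entries, 17 passed the filter on low counts and were tested: all 5 simple keratins, 8 of stratified epithelium, 1 hair keratin (KRT34) and 3 less classified ones. No root sheath keratin passed. Of the other 39, 12 had no count in any library (6 of root sheath, 5 of hair and 1 of stratified epithelium) and 27 had summed counts of at most 113 over the 12 libraries. Keratins that are scarce outside methotrexate entered the test only through the methotrexate libraries. KRT5 entered only through the libraries with both agents, at 0.594 to 0.873 CPM there and at most 0.304 CPM elsewhere. The tested set is therefore not a neutral sample of the family.

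In control spheroids the keratin pool was that of a simple epithelium. Per kb of gene length, KRT8 stood at 815 ± 69.7 CPM per kb (SD, n = 3), KRT19 at 555 ± 20.9 and KRT18 at 117 ± 12.6, and their library ranges did not overlap. KRT10, the suprabasal epidermal keratin, came next at 17.2 ± 2.33 and KRT20, a keratin of differentiated enterocytes, at 1.75 ± 0.844. Below these, KRT222, KRT23, KRT15, KRT7 and KRT4 had mean levels of 0.668 to 0.447 CPM per kb, and each overlapped its neighbour in that order. The 5 simple keratins took 98.5, 98.6 and 98.9% of all keratin counts in the control libraries.

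**Figure D1:**
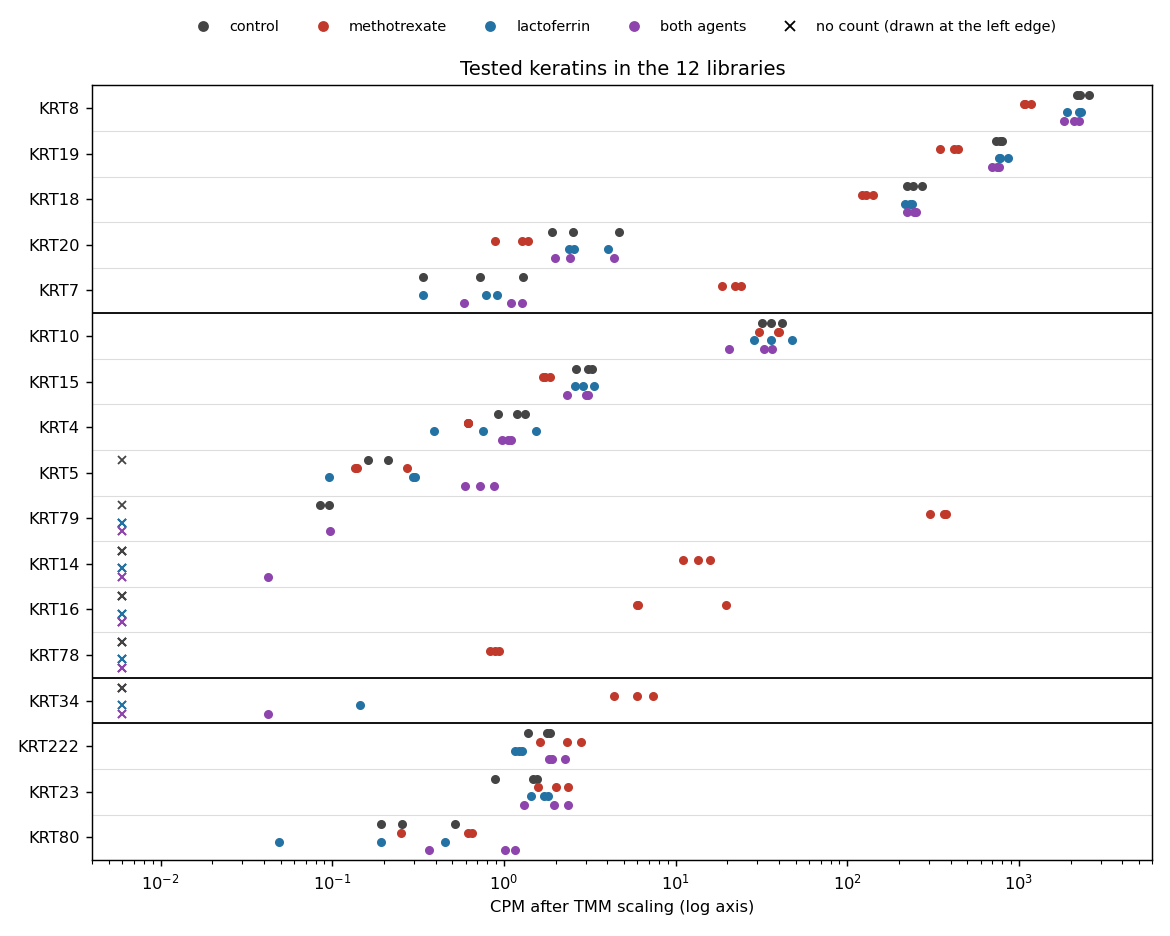
Level of each of the 17 tested keratins in the 12 libraries, as CPM after TMM scaling on a log axis; each point is 1 library, crosses at the left edge are libraries with no count, and black lines divide simple, stratified, hair and less classified keratins. KRT79, KRT14, KRT16, KRT78 and KRT34 have their methotrexate points far to the right of the rest, and KRT8, KRT19 and KRT18 have theirs to the left.

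Methotrexate against control asks what the drug alone did. Under TMM scaling 4 of the 5 simple keratins were lower, KRT7 was higher, and 5 keratins of stratified epithelium or hair that were at or near 0 in control were higher. Of the 17 tested, 6 rose, 6 fell and 5 did not pass the test (edgeR quasi-likelihood F test, Benjamini-Hochberg adjusted p under 0.05). The background is high: 64.5% of the 16733 tested genes were called, 35.4% higher and 29.1% lower. The keratin share is near it. The median log2 fold change was 0.45 over the tested keratins and 0.03 over all tested genes. Libraries of the groups did not overlap for 7 keratins that were higher and 6 that were lower (38.6% and 33% of all tested genes).

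KRT8 (ENSG00000170421), the type II keratin of simple epithelia, had 2259, 2179 and 2557 CPM in control and 1183, 1065 and 1081 CPM in methotrexate. All 3 methotrexate libraries lay below all 3 control libraries. The log2 fold change was -1.07 ± 0.10 (SE; edgeR adjusted p = 1.53e-07). KRT19 (ENSG00000171345, chromosome 17, 39679869 to 39684560), the smallest keratin and a type I partner of KRT8, had 739, 796 and 777 CPM in control and 441, 417 and 347 CPM in methotrexate. Again the groups did not overlap, and the log2 fold change was -0.94 ± 0.10 (edgeR adjusted p = 4.1e-07). KRT18 (ENSG00000111057), the main type I partner, had 240, 222 and 274 CPM in control and 128, 122 and 142 CPM in methotrexate, a log2 fold change of -0.91 ± 0.10 (edgeR adjusted p = 8.58e-07). These 3 abundant keratins fell by similar amounts, and so did the general epithelial markers, whose median log2 fold change was -1.04.

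KRT20 (ENSG00000171431, chromosome 17, 39032193 to 39041479) was scarce in Caco-2, with 4.69, 2.53 and 1.90 CPM in control and 0.887, 1.28 and 1.39 CPM in methotrexate. The groups did not overlap, although control varied more than 2-fold, and the log2 fold change was -1.34 ± 0.36 (edgeR adjusted p = 0.00393). KRT7 (ENSG00000135480, chromosome 12, 52626304 to 52645970), a keratin of ducts and glands, went the other way. Its level was 1.29, 0.723 and 0.338 CPM in control and 24.2, 22.1 and 18.7 CPM in methotrexate, a log2 fold change of 4.81 ± 0.32 (edgeR adjusted p = 2.21e-09).

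These falls depend on the scale. Libraries were also scaled on the median ratio of 41 brush border and tight junction genes in place of TMM. The median over all 16733 genes then moved from 0.03 to 0.86 in log2. On this scale 10 of 17 keratins were higher and 1 lower, beside 11968 and 217 of the 16733 genes. KRT8 was then the one keratin still lower (-0.24, edgeR adjusted p = 0.0478). KRT19 (-0.11, adjusted p = 0.348), KRT18 (-0.08, adjusted p = 0.564) and KRT20 (-0.50, adjusted p = 0.213) no longer passed the edgeR test. KRT7 was higher on both scales. Most genes of the scaling list were themselves lower under TMM, 31 of 42 tested.

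**Figure D2:**
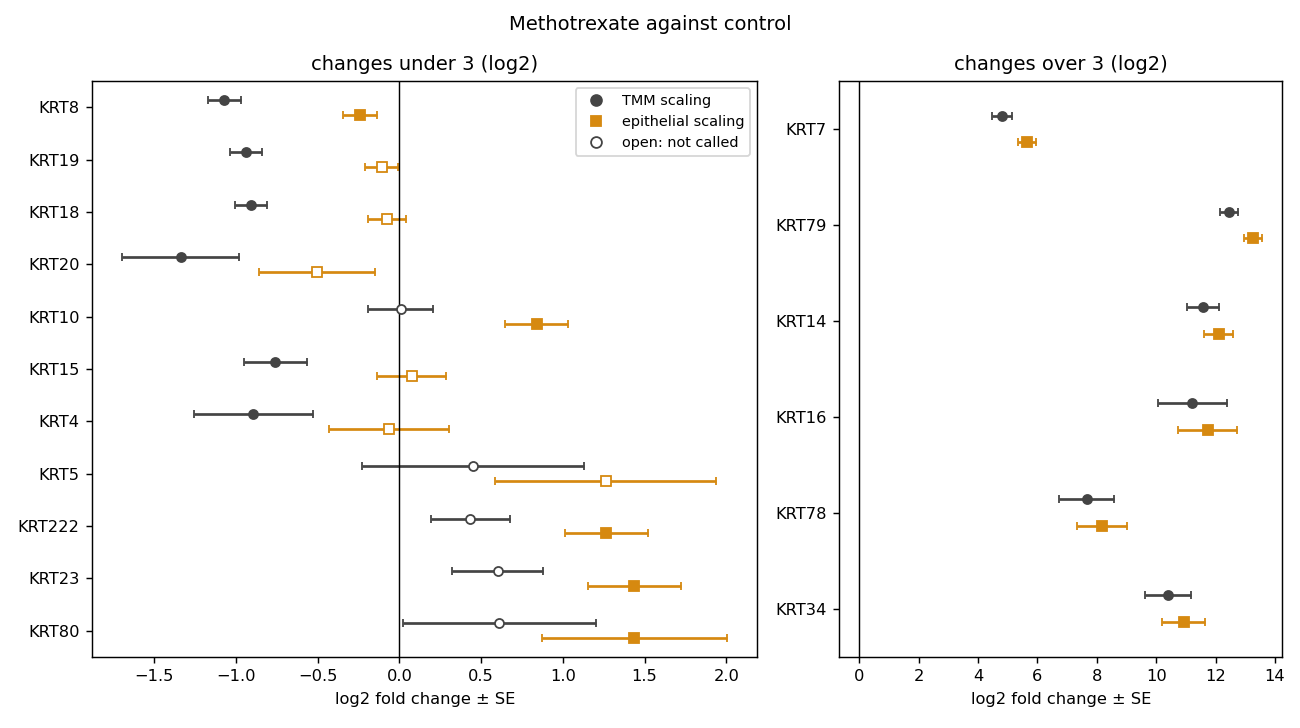
Log2 fold change ± SE of methotrexate against control for the 17 tested keratins, under TMM scaling (circles) and under scaling on brush border and tight junction genes (squares); open symbols did not pass the edgeR test, and the panels have different axes. KRT7, KRT79, KRT14, KRT16, KRT78 and KRT34 are higher on both scales, KRT8 is lower on both, and KRT15 changes sign (from -0.76 to 0.074).

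The keratin that reached the highest level among those at or near 0 in control was KRT79 (ENSG00000185640, chromosome 12, 53215194 to 53228079, minus strand), a type II keratin known from sebaceous glands and the hair canal. It had 2, 0 and 2 counts in control and 14908, 19416 and 15259 counts in methotrexate, which is 0.0958, 0 and 0.0845 CPM against 367, 376 and 303 CPM. The 3 methotrexate libraries were alike and far above every other library. The fitted log2 fold change was 12.46 ± 0.30 (edgeR adjusted p = 9.88e-14), and it rests on 4 control counts: leaving out control library 2, the one at 0, gave 11.85. In lactoferrin it had no counts, and with both agents 0, 2 and 0.

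KRT14 (ENSG00000186847, chromosome 17, 39738531 to 39743173), the type I keratin of basal keratinocytes, had 642, 697 and 561 counts in methotrexate (15.8, 13.5 and 11.1 CPM) and none in control. It was at least 308-fold higher, taking 3 counts over the control group as the floor (edgeR adjusted p = 1.85e-09). KRT16 (ENSG00000186832, chromosome 17, 39766030 to 39772151), a keratin of activated epidermis, had 799, 308 and 306 counts in methotrexate (19.7, 5.97 and 6.07 CPM) and none in control, a rise of at least 229-fold (edgeR adjusted p = 1.4e-05). Methotrexate library 1 stood above the other 2 for KRT16, whose mean was 10.6 ± 7.89 CPM (SD, n = 3) and 6.02 CPM without it (fitted log2 11.22 and 10.35). KRT34 (ENSG00000131737, chromosome 17, 39533902 to 39538655), a hair keratin, had 4.38, 7.44 and 5.93 CPM in methotrexate and none in control, a rise of at least 140-fold (edgeR adjusted p = 4.09e-08). KRT78 (ENSG00000170423, chromosome 12, 53231588 to 53242876), a type II keratin of stratified epithelia, had 38, 46 and 42 counts in methotrexate and none in control, a rise of at least 20.4-fold (edgeR adjusted p = 3.84e-05). All 5 remained called on the epithelial scale and when any 1 library was left out. DESeq2 called them too. All these fits used the same counts, and the 5 passed the filter only through the methotrexate libraries. The repeated calls are therefore no separate support.

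The known partners of KRT14 and KRT16 did not pass the test or had few counts. KRT5 (ENSG00000186081, chromosome 12, 52908359 to 52914471), which pairs with KRT14, had 0, 4 and 5 counts in control and 11, 7 and 7 in methotrexate (log2 fold change 0.45 ± 0.68, edgeR adjusted p = 0.577). KRT6A, KRT6B and KRT6C, the partners of KRT16, had 0, 1 and 0, then 1, 2 and 1, then 0, 0 and 0 counts in the methotrexate libraries. Another stratified pair, KRT10 with KRT1, was level or scarce. KRT10 (ENSG00000186395, chromosome 17, 38974369 to 38978847) had 41.9, 35.8 and 32.1 CPM in control and 39.4, 40.1 and 30.8 CPM in methotrexate, with full overlap (0.01 ± 0.20, edgeR adjusted p = 0.98). On the epithelial scale KRT10 was 0.84 higher (edgeR adjusted p = 0.000746). KRT1, the partner of KRT10, had 0, 4 and 1 counts in control and 0, 3 and 1 in methotrexate.

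KRT15, a type I keratin of basal cells, had 2.63, 3.09 and 3.25 CPM in control and 1.70, 1.86 and 1.74 CPM in methotrexate. The groups did not overlap (-0.76 ± 0.20, edgeR adjusted p = 0.003), but on the epithelial scale the sign turned (0.074, adjusted p = 0.761). KRT4, a keratin of the oesophageal lining, had 1.20, 1.33 and 0.929 CPM in control and 0.616, 0.620 and 0.615 CPM in methotrexate (-0.89 ± 0.36, edgeR adjusted p = 0.0417). That call was lost without control library 1 (edgeR adjusted p = 0.0848) or 2 (0.132) and without methotrexate library 1 (0.0806), 2 (0.0875) or 3 (0.0808). In edgeR it was also lost without library 1 of both agents (adjusted p = 0.0515), without the filter (0.0516) and with a replicate block (0.0553). DESeq2 did not call KRT4 either (adjusted p = 0.0666). On the epithelial scale KRT4 was at -0.06 (edgeR adjusted p = 0.887). KRT23, KRT80 and KRT222, which did not pass, had log2 values of 0.60, 0.61 and 0.43 (edgeR adjusted p = 0.0713, 0.378 and 0.126), and all 3 passed on the epithelial scale, where they were 1.44, 1.44 and 1.27 higher.

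Among the keratins below the filter, several had counts almost only in methotrexate. KRT77 had 19, 25 and 27 counts there, KRT2 (a keratin of the upper epidermis) 14, 14 and 17, and KRT12 (the corneal type I keratin) 9, 14 and 12. None of the 3 had a count in control, so that they were at least 11.5-fold, 7.30-fold and 5.68-fold higher against the floor. Hair keratin KRT33B had 9, 3 and 4 counts (at least 2.60-fold). The root sheath keratin KRT71 went the other way, with 8, 3 and 10 counts in control and 4, 4 and 0 in the deeper methotrexate libraries, and DESeq2, which tested it, called it lower (log2 -2.41, adjusted p = 0.0321). KRT86 had 4, 5 and 4 counts in control and 16, 29 and 24 in methotrexate, but it overlaps KRT7 on the same strand by 2887 bases, so reads could be shared. Keratin entries with any count numbered 17 to 20 in control libraries, 32 to 37 in methotrexate, 18 to 21 in lactoferrin and 19 to 24 with both agents. After thinning each library to 18714054 counts (the mean of 20 draws), methotrexate libraries still had 27.7 to 29.4 entries with counts and the others 17 to 22.8.

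The makeup of the pool changed accordingly. Simple keratins took 79.6, 78.2 and 81.3% of keratin counts in methotrexate, 98.7, 98.8 and 98.4% in lactoferrin and 98.6, 98.5 and 98.9% with both agents. Only the methotrexate libraries stood apart from control. KRT79 alone took 16.4, 18.1 and 15.5% there, while the share of KRT8 was 68.6% ± 1.45 (SD, n = 3) in control and 53.1% ± 2.03 in methotrexate. These shares do not depend on library scaling. Per kb of length the share of simple keratins was 98.7% ± 0.212 in control and 78.4% ± 1.37 in methotrexate. All keratins together were 0.352% ± 0.0166 of control counts, 0.180% ± 0.0095 of methotrexate counts, 0.342% ± 0.0225 with lactoferrin and 0.325% ± 0.0201 with both agents. The sum of the 51 other keratins was 45.2 ± 4.63 CPM in control and 426 ± 51.3 CPM in methotrexate.

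**Figure D3:**
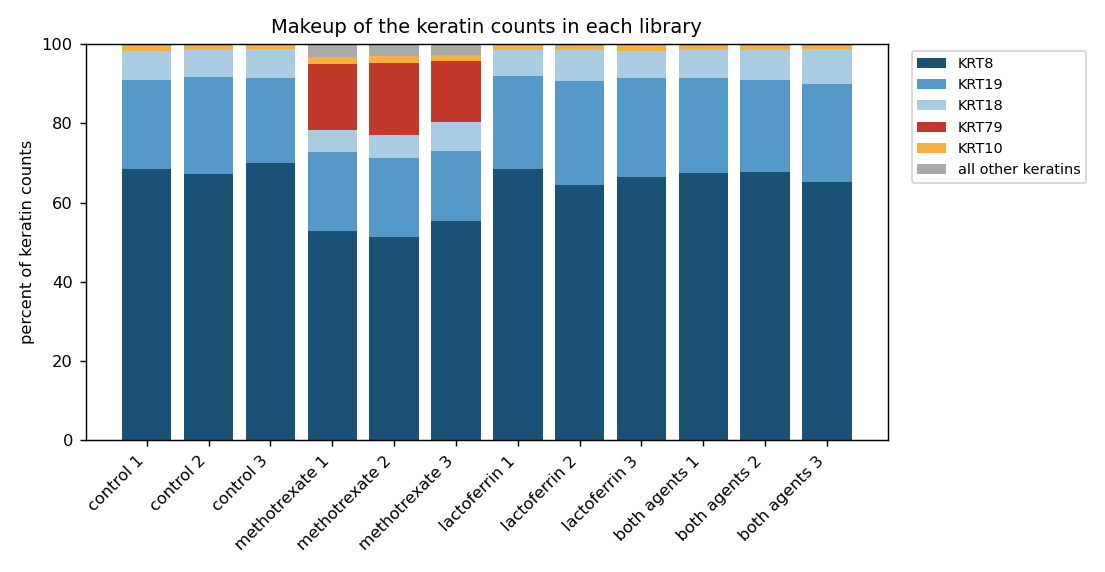
Percent of all keratin counts taken by KRT8, KRT19, KRT18, KRT79, KRT10 and all other keratins in each of the 12 libraries, as stacked bars from 0 to 100. KRT79 takes 15.5 to 18.1% of the bar in the 3 methotrexate libraries and no visible share elsewhere.

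Ratios within a library do not depend on its scaling. KRT8 had 9.52 ± 0.259 counts for each KRT18 count in control, 8.53 ± 0.840 in methotrexate, 9.41 ± 1.07 in lactoferrin and 8.63 ± 1.14 with both agents (SD, n = 3). The methotrexate ratios (7.60 to 9.23) lay below the control ratios (9.35 to 9.82), while both overlapped those of lactoferrin (8.24 to 10.4) and of both agents (7.33 to 9.46). Summed per kb, the ratio of type II to type I keratins was 1.18 ± 0.0863 in control and 1.47 ± 0.0605 in methotrexate, where its 3 values lay above those of the other 9 libraries (1.06 ± 0.0961 in lactoferrin and 1.09 ± 0.0642 with both agents). KRT79, a type II keratin, had the third highest level per kb in methotrexate (169 ± 19.4 CPM per kb), after KRT8 (388 ± 22.4) and KRT19 (289 ± 35.3) and ahead of KRT18 (62.6 ± 5.04). Below KRT10 (17.3 ± 2.43), KRT7 (12.4 ± 1.57) and KRT14 (8.11 ± 1.41) followed, with KRT16 (6.43 ± 4.80) overlapping both KRT14 and KRT34 (3.38 ± 0.872).

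Genes that work with keratins were counted from lists chosen with earlier results of these data known. Their counts under TMM stand beside 35.4% of all tested genes called higher and 29.1% lower. Those on the epithelial scale stand beside 11968 of 16733 tested genes called higher and 217 lower. Under TMM all 9 tested desmosome genes (of 14) fell, with a median log2 fold change of -0.97, close to that of the general epithelial markers (-1.04). On the epithelial scale, tried on these lists after the data were seen, 1 desmosome gene rose and 1 fell (median -0.14). Desmoplakin (DSP), which anchors keratin to the desmosome, went from 749 ± 12.3 to 380 ± 43.3 CPM (-0.98 ± 0.09, edgeR adjusted p = 1.84e-07). Of 13 linkers and binding proteins, 4 rose and 5 fell (median 0.08): the spectraplakins MACF1 (1.03 ± 0.09) and DST (1.18 ± 0.16) rose, and the hemidesmosome integrin ITGB4 fell (edgeR adjusted p = 1.5e-05). On the epithelial scale 9 of the 13 rose and 0 fell. Of 11 tested genes for other intermediate filaments (of 14), 6 rose and 4 fell (median 1.49), and 7 rose and 1 fell on the epithelial scale. Vimentin (VIM), the filament of mesenchymal cells, went from 0.637 ± 0.0849 to 688 ± 68.5 CPM (10.07 ± 0.16, edgeR adjusted p = 1.2e-16).

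The tested markers of cells that normally carry stratified keratins fell or did not pass the test under TMM. Of 8 keratinocyte markers 3 were tested and all fell (summed level 52.9 to 64.2 CPM in control and 28.3 to 33.2 in methotrexate), and on the epithelial scale 0 of the 3 passed. SERPINB5 had no count in any group, and DSG3 had 2 counts over the control libraries and 0 over the methotrexate libraries. Others of the list were higher: TP63, the basal keratinocyte factor, had 3 and 35 counts (0.0479 ± 0.0830 and 0.242 ± 0.0395 CPM), and DSG1, a desmosomal cadherin of the epidermis, had 1 and 9. None of these 4 passed the filter. Of 14 cornification genes 3 were tested, 1 fell and 0 rose (5.89 to 6.83 and 3.61 to 4.95 CPM), with 0 called on the epithelial scale. Members at 0 numbered 9 in control and 6 in methotrexate: involucrin (IVL), SPRR1A, SPRR1B, CASP14, CDSN and KLK5 had no count in any group, and LOR, SPRR2A and SPRR3 had 1, 2 and 2 counts, in methotrexate alone. Of 6 mesothelial markers, 2 rose (CALB2 and PRG4) and 3 fell.

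Lactoferrin against control asks what that protein alone did. No keratin was called: 0 of 17, with 0% of all 16733 tested genes called by edgeR, 0 keratins at an unadjusted p under 0.05 (628 of all genes) and 0 keratins in DESeq2. KRT8 had 2247, 1907 and 2301 CPM with lactoferrin, KRT19 768, 778 and 862 CPM, and KRT18 217, 231 and 239 CPM, all 3 overlapping control. KRT222 was the one tested keratin without overlap, with 1.39, 1.85 and 1.77 CPM in control and 1.15, 1.23 and 1.27 CPM in lactoferrin. A separation downwards occurred in 4.91% of all tested genes.

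Both agents against control asks what the pair did. Again 0 of 17 keratins were called by edgeR (0.0299% of all tested genes were, 5 of 16733), with 2 keratins, KRT5 and KRT80, at an unadjusted p under 0.05 (591 of all genes). DESeq2 gave an adjusted p to 13 keratins, KRT5 and KRT80 not among them, and called 0. KRT8 had 2108, 2229 and 1841 CPM, KRT19 745, 765 and 695 CPM and KRT18 223, 245 and 251 CPM. Each overlapped control. KRT79 had 2 counts over the 3 libraries, KRT14 and KRT34 had 1 each, and KRT16 and KRT78 had none. Thus the 5 keratins that rose from at or near 0 in methotrexate had at most 2 counts each with both agents. VIM, however, was called (0.637 ± 0.0849 CPM in control and 2.06 ± 0.238 with both agents, log2 1.69 ± 0.20, edgeR adjusted p = 0.00339). The other lists of partners and markers had no called gene in this comparison.

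A few scarce keratins had their highest mean levels with both agents. KRT5 had 14, 18 and 16 counts (0.594, 0.873 and 0.730 CPM), above all other 9 libraries, whose highest was 0.304 CPM. It was the one tested keratin without overlap with control, as were 4.19% of all tested genes in the same direction. KRT5 passed the filter only through these libraries, so its separation from any other group is not independent of that selection. The log2 fold change was 2.46 ± 0.61 (edgeR adjusted p = 0.671). KRT80 (ENSG00000167767, chromosome 12, 52562780 to 52585784) had 1.02, 1.16 and 0.365 CPM with both agents and 0.192, 0.522 and 0.253 CPM in control, so the groups overlapped (1.36 ± 0.60, edgeR adjusted p = 1). KRT81 (ENSG00000205426, chromosome 12, 52679697 to 52685318), a hair keratin that did not pass the filter, had 17, 18 and 3 counts with both agents and 0, 1 and 0 in control. The ratio was 39.9, with a 95% counting interval of 6.75 to 1618. Without the filter edgeR called it (adjusted p = 0.00842), and DESeq2 gave it no adjusted p. KRT81 lies opposite KRT86 over 5622 bases, and KRT86 had 8, 5 and 6 counts in the same libraries.

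**Figure D4:**
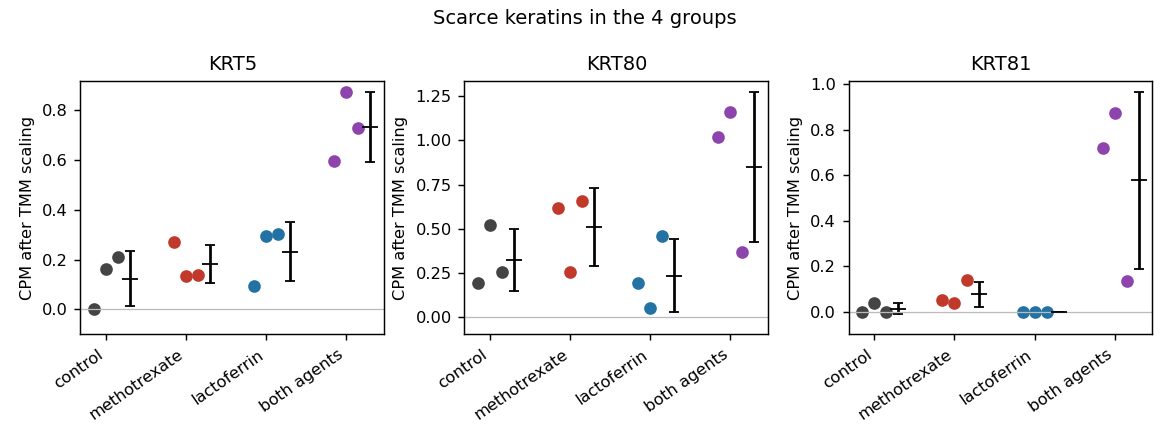
CPM after TMM scaling of KRT5, KRT80 and KRT81 in the 4 groups; points are libraries 1 to 3 from left to right, black bars are mean ± SD (n = 3), and the panels have different axes. KRT5 is highest in the 3 libraries with both agents (0.594 to 0.873 CPM), while library 3 of that group is low for KRT80 (0.365) and KRT81 (0.137).

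Both agents against lactoferrin also gave 0 of 17 keratins by edgeR (0.0179% of all tested genes), with 3 keratins at an unadjusted p under 0.05 (564 of all genes) and 0 in DESeq2. These were KRT5 (1.64 ± 0.56), KRT80 (1.86 ± 0.65) and KRT222 (0.72 ± 0.27), each with an edgeR adjusted p of 1. KRT81 had no count in lactoferrin, so it was at least 11.7-fold higher with both agents. Without the filter edgeR called it (adjusted p = 0.00287), and DESeq2 gave an adjusted p of 0.294.

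Both agents against methotrexate asks what adding lactoferrin did to the drug's effect. It shares the methotrexate libraries with the first comparison, so the values mirror that one in part. Of 17 keratins 6 were higher and 6 lower, with 63.2% of all tested genes called (28.8% higher and 34.4% lower). KRT8 was higher by 0.89 ± 0.10, KRT19 by 0.87 ± 0.10, KRT18 by 0.87 ± 0.10 and KRT20 by 1.29 ± 0.36. On the epithelial scale 1 keratin was higher and 9 were lower, beside 295 and 11656 of the 16733 tested genes. There KRT8 (0.10), KRT19 (0.08), KRT18 (0.09) and KRT20 (0.51) did not pass, and KRT15 turned from 0.67 to -0.13. KRT5 was higher by 2.01 ± 0.51 (edgeR adjusted p = 0.00268) and was the keratin called higher on both scales. It had passed the filter only through the libraries with both agents, so its call is not independent of that selection. KRT7 was lower, at 1.27, 0.582 and 1.09 CPM with both agents (-4.44 ± 0.31, edgeR adjusted p = 4.2e-09). KRT79 had 49583 counts over the methotrexate libraries and 2 with both agents, a ratio of 11488 with a 95% counting interval of 3180 to 94864.

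The interaction tests whether methotrexate changed a keratin differently in the presence of lactoferrin. It called 6 of 17 keratins, 4 higher and 2 lower (46.7% of all tested genes, 20.6% higher and 26.1% lower). KRT7 rose by 4.81 in log2 without lactoferrin and had 0.56 with it, a difference of -4.25 ± 0.58 (edgeR adjusted p = 2.21e-05). KRT8 fell by 1.07 without lactoferrin and had -0.06 with it, a difference of 1.01 ± 0.14 (edgeR adjusted p = 3.33e-05). KRT18 (0.97 ± 0.14) and KRT19 (0.81 ± 0.14) were alike. KRT20 differed by 1.31 ± 0.50 (edgeR adjusted p = 0.0431). On the epithelial scale the count turned to 0 higher and 4 lower, beside 125 and 9912 of the 16733 tested genes. The differences of KRT8 (0.20), KRT18 (0.17), KRT19 (0.0065) and KRT20 (0.51) then did not pass, and KRT10 (-1.14, edgeR adjusted p = 0.00163) and KRT23 (-1.23, adjusted p = 0.0151) were called lower beside KRT7 and KRT34. For KRT79, KRT14, KRT16 and KRT78, which had no count in lactoferrin, edgeR gave no usable interaction test (adjusted p = 1). DESeq2 called KRT79, KRT14 and KRT78. The KRT34 call rests on 3 counts in lactoferrin library 1, with none in control, and was lost without that library (adjusted p = 1).

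Keratin pseudogenes, which copy parts of keratin genes, could take reads from them. Of 101 such entries, 44 were named for KRT8 and 39 for KRT18. Counts were found in 49 of the 101. Together they came to 0.250% ± 0.0218 of the keratin count in control and 0.531% ± 0.0409 in methotrexate. With the counts of the KRT8 and KRT18 pseudogenes added, the KRT8 to KRT18 ratio stayed at 9.52 in control and 8.53 in methotrexate. Over the 9 libraries without methotrexate alone, KRT19 varied least among the abundant keratins (coefficient of variation 5.88%), followed by KRT18 (7.37%) and KRT8 (9.79%), while KRT10 varied by 22.2% and KRT20 by 35.9%.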

How the data were processed

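Bulk RNA-seq of 12 Caco-2 spheroid libraries in 4 groups of 3 was used as the raw counts per gene that the authors deposited, in 1 table with gene symbols, lengths and hg19 coordinates. Per the submitters' processing notes, CASAVA, STAR, DESeq2 and hg19 were used. Not given in the sources used here are versions, the counting program, the annotation, strandedness and whether a count is a read or a pair. Of 48162 genes, 15233 had no count.

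The analysis used edgeR 4.0.16 under R 4.3.3. There, filterByExpr on the 4 groups (minimum count 10) left 16733 genes, libraries were scaled by TMM (factors 0.852 to 1.08), and 1 mean per group was fitted to all 12 libraries (biological coefficient of variation 12.9%, 8 residual degrees of freedom). The quasi-likelihood F test was run on 6 contrasts, with Benjamini-Hochberg adjustment over all genes tested and calls under 0.05. CPM are counts per 1000000 of the TMM-scaled total, and SE is the log2 fold change divided by the root of F. Where a group had no counts, folds are bounds against 3 counts over the group, and with 1 to 3 counts a ratio with its exact 95% counting interval is given. A floor of 3 counts is 0.0495 to 0.16 CPM per library. Intervals and floors cover counting error only.

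Every keratin that passed the filter is given, up to 6 of the rest by summed count, and up to 4 members per other list by p. KRT1, KRT33B, KRT6A, KRT6B, KRT6C, TP63, DSG1 and the markers at 0 were named after their values were seen. The members and gene lists were chosen with earlier results of these data known. Alternatives were relative log expression factors, epithelial scaling, no filter, DESeq2 1.42.0 (Wald test), a replicate block, only the groups compared, the study's threshold (over 2-fold, adjusted p under 0.01), each library left out and, chosen after seeing the data, thinning and epithelial scaling of the other lists. Depending on the contrast, DESeq2 gave an adjusted p to 13 to 44 keratins, and those without one count as not tested. Keratin proteins are not shown. The labels do not say that a replicate number marks a shared culture or batch; between methotrexate and both agents same-numbered libraries deviated together (correlations 0.106, 0.288 and 0.287), and between no other pair of groups did all 3. The replicate block changed no keratin call between these 2 groups. The fits were tested on simulated data built from control levels. Those data left out genes scarce or absent in control and held no shift as broad as that in methotrexate. Such cases were not tested.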

Additional observations from a re-analysis of the deposited data

Results flagged for a closer look

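The interaction term (edgeR, over 16733 genes) called 6 of 17 tested keratins, beside 46.7% of all tested genes. It sets the methotrexate difference without lactoferrin against that with lactoferrin. Whether the RNA of the methotrexate libraries came from Caco-2 cells alone was not tested. KRT7 differed by -4.25 in log2 (adjusted p = 2.21e-05), with methotrexate libraries of 18.7 to 24.2 CPM and libraries of both agents of 0.582 to 1.27 CPM. KRT8 differed by 1.01 (edgeR adjusted p = 3.33e-05), KRT18 by 0.97 (4.11e-05) and KRT19 by 0.81 (0.000165), and these 3 did not pass on the epithelial scale (0.20, 0.17 and 0.0065). KRT34 differed by -11.85 (edgeR adjusted p = 0.00143), a fitted value that depends on the prior count, and by -8.25 (adjusted p = 1) without lactoferrin library 1. KRT20 differed by 1.31 (edgeR adjusted p = 0.0431) and by 0.51 on the epithelial scale (adjusted p = 0.408). The call was also lost without control library 1 (adjusted p = 0.151), methotrexate library 1 (0.0899) or 2 (0.0578), lactoferrin library 1 (0.0904) or 3 (0.0955) or library 3 of both agents (0.135).

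Outside the protein-coding keratins, the pseudogene KRT8P12 (ENSG00000229320, hg19 chromosome 3, 160283235 to 160287036) was higher in methotrexate while KRT8 was lower. It had 4.13 ± 0.519 CPM in control and 7.15 ± 0.511 CPM in methotrexate (SD, n = 3; log2 0.79 ± 0.16, edgeR adjusted p = 0.000414). The other tested KRT8 pseudogenes, KRT8P46, KRT8P33 and KRT8P3, had -0.64, -0.66 and -0.71, and none passed the test.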

How the results depend on the processing

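Over the 6 comparisons the number of keratins called kept within 1.5 times of that reported in most alternatives, with direction left aside. Epithelial scaling moved the directions. It gave 10 higher and 1 lower in methotrexate against control, against 6 and 6 under TMM. In both against methotrexate it gave 1 and 9 (6 and 6 under TMM), and in the interaction 0 and 4 (4 and 2). The study's threshold left 3 keratins in the interaction, and DESeq2 called 10. Without the filter 1 keratin was called in both agents against control, 19 in both against methotrexate and 1 in both against lactoferrin. With any 1 library left out, 11 to 12 keratins were called in methotrexate against control, 12 to 14 in both against methotrexate, 5 to 7 in the interaction and 0 in each of the other 3 comparisons. Epithelial scaling reversed KRT15, to 0.074 in methotrexate against control and -0.13 in both against methotrexate. For single keratins, 1743 alternative values kept their side of the threshold, 22 gained a call, 29 lost one and 2 reversed. A change of sign counted as reversed only where a fit made a call, so uncalled values among the 1743 could change sign. KRT10 in lactoferrin against control, for example, ranged from -0.18 to 0.19. Causes were not tested.

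Same-numbered libraries correlated from -0.69 to 0.46 after removal of group means. In 5 of the 6 pairs of groups at least 1 correlation was negative; between methotrexate and both agents all 3 were above 0.1 (0.106, 0.288 and 0.287), though library 1 correlated better with another number. A replicate block gave 11 keratins in methotrexate against control, 12 in both against methotrexate, 5 in the interaction and 0 elsewhere. Under this block KRT4 in methotrexate against control (edgeR adjusted p = 0.0553) and KRT20 in the interaction (0.0702) did not pass. Depth limits keratins under 0.16 CPM, the level of 3 counts in the shallowest library.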
